A study of Mus musculus with 15 samples.

Results

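Peroxisome proliferator-activated receptors (PPARs) are nuclear receptors that are activated by fatty acids and their derivatives, pair with a retinoid X receptor, and switch on genes that take up, store and burn fat. Such target genes, 9 in all, are described here: Pdk4, Angptl4, Cpt1a, Plin2, Ucp2, Ucp3, Acadl, Acadm and Hadha. The genes were chosen from those known as PPAR targets, with earlier results of these arrays known. Per gene the probe was selected on the highest mean log2 intensity over the 15 arrays, and as each measured gene had 1 probe with its symbol alone, this step left nothing out. A probe was found for 8 of the 9 genes, out of 19934 genes on the array, and Ucp2 was not analysed here. In the lung these genes are known from alveolar macrophages, which need PPAR gamma to handle surfactant lipid, from alveolar type II cells, which build surfactant from fatty acids, and from the endothelium, where lipoprotein lipase releases fatty acids from circulating lipid.

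RNA of 1 lobe, the inferior one of the right lung, was measured on whole-transcript arrays in 15 mice (C57BL/6N males of 24 to 26 g), with 5 in each of 3 groups. In all mice, controls included, anesthesia was induced with ketamine and acepromazine, and ventilation or spontaneous breathing then lasted 6 h. The H2S ventilated mice were mechanically ventilated for the whole time (12 ml/kg tidal volume, 2 cmH2O positive end-expiratory pressure) with synthetic air that carried 80 ppm hydrogen sulfide, the air ventilated mice received the same ventilation with synthetic air alone, and the control mice breathed synthetic air spontaneously. Mice that breathed H2S without a ventilator were not analysed here. Both comparisons with control used the same 5 control mice. Array medians lay between 179.84 and 184.55 in H2S ventilated mice, between 179.08 and 187.23 in air ventilated mice and between 184.18 and 187.45 in control mice, and arrays of 1 group correlated at 0.984 or more. The labels number the mice from 1 to 12 (3 per group) and from 20 to 28 (2 per group), and what the numbers stand for is not given. A gene passed the test where limma gave a Benjamini-Hochberg adjusted p under 0.05 over all 28361 probes. Intensities are in linear arbitrary units, and differences are on the log2 scale with the SE of the fit. As a whole lobe was measured, fewer cells of a type and less RNA per cell cannot be told apart.

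In ventilated lungs Pdk4 was 2.44-fold to 2.71-fold and Angptl4 1.88-fold to 1.90-fold the control level, Acadl and with H2S also Plin2 were mildly higher, and the other members differed by less than the test could separate from the spread between mice. Against control, 4 of the 8 measured members were higher in H2S ventilated lungs (Pdk4, Angptl4, Plin2 and Acadl) and 3 in air ventilated lungs (Pdk4, Angptl4 and Acadl). Over all probes, 3.92% were higher and 3.93% lower with H2S, and 1.56% were higher and 1.89% lower with air. No member passed as lower. The members' median difference was 0.32 with H2S and 0.16 with air, beside 0.00 and 0.01 over all probes. At the thresholds the study used (an effect of 1.7-fold or more, p up to 0.005 and adjusted p up to 0.1), Pdk4 and Angptl4 were called in both comparisons, against 1.45% of all probes with H2S and 0.959% with air. Between the H2S ventilated and the air ventilated group, 0 of 8 members passed by limma and 0 by CyberT, the regularized test of the study, and 1 had an unadjusted p under 0.05. In that comparison 0.0705% of all probes were higher, 0.00705% were lower and 0.0599% were called at the thresholds of the study. Of all 28361 probes, 5869 had an unadjusted p under 0.05 with H2S, 3966 with air and 1612 between H2S and air. CyberT passed 1244 as higher and 1372 as lower with H2S, 667 and 950 with air, and 109 and 34 between H2S and air. Counts by unadjusted p and by CyberT below are to be read beside these.

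Pdk4 encodes pyruvate dehydrogenase kinase 4, which inactivates the pyruvate dehydrogenase complex by phosphorylation and so spares glucose while fat is burned (chromosome 6, 5483351 to 5496278, GRCm38.p6). Its intensity was 3304, 2991, 2888, 2006 and 2655 in the 5 H2S ventilated mice. In the 5 air ventilated mice it was 2456, 2948, 2715, 1705 and 2681, and in the 5 control mice 1144, 824, 697, 1229 and 1277. Every ventilated mouse was above every control mouse, and the 2 ventilated groups overlapped. The H2S ventilated group was 1.44 ± 0.19 (log2, SE) above control, a 2.71-fold difference with a 95% confidence interval of 2.06 to 3.57 (limma, adjusted p = 0.00038). The air ventilated group was 1.29 ± 0.19 above control, a 2.44-fold difference with an interval of 1.86 to 3.22 (adjusted p = 0.0023). H2S minus air was 0.15 ± 0.19, with an interval of -0.24 to 0.55 on the log2 scale (adjusted p = 0.997). Among the mice numbered 1 to 12 alone, the differences from control were 1.81 with H2S and 1.63 with air, and among those numbered 20 to 28 they were 0.88 and 0.77.

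Angptl4 encodes a secreted protein that inhibits lipoprotein lipase (chromosome 17, 33774900 to 33781575). Its intensity was 1796, 1907, 1750, 1293 and 1465 in the H2S ventilated mice, 1640, 1635, 1780, 1325 and 1680 in the air ventilated mice, and 1206, 800, 617, 905 and 845 in the control mice. The highest control mouse lay just below the lowest ventilated mice. The difference from control was 0.93 ± 0.15 with H2S, or 1.90-fold, with a log2 interval of 0.61 to 1.25 (adjusted p = 0.0016). With air it was 0.91 ± 0.15, or 1.88-fold, with a log2 interval of 0.59 to 1.23 (adjusted p = 0.0043). H2S minus air was 0.02 ± 0.15 with an interval of -0.30 to 0.34 (adjusted p = 0.997), so that a difference of up to 1.27-fold between the ventilated groups lies within its error. Among the mice numbered 1 to 12 the differences from control were 1.11 with H2S and 1.00 with air, and among those numbered 20 to 28 they were 0.65 and 0.77.

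Acadl encodes long-chain acyl-CoA dehydrogenase, an enzyme of the first step of mitochondrial beta-oxidation (chromosome 1, 66830839 to 66863309). Its intensity was 1572, 1502, 1689, 1411 and 1577 in H2S ventilated mice and 1541, 1427, 1711, 1315 and 1505 in air ventilated mice, against 1242, 1050, 1060, 1310 and 1136 in control mice. The groups did not overlap with control, but the lowest air ventilated mouse and the highest control mouse were close, at 1315 and 1310. The difference from control was 0.42 ± 0.09 with H2S, or 1.34-fold with an interval of 1.18 to 1.52 (adjusted p = 0.0063), and 0.37 ± 0.09 with air, or 1.29-fold with an interval of 1.14 to 1.47 (adjusted p = 0.024). The call with air was lost without control mouse 13_25, 7_9 or 6_5 or air ventilated mouse 12_10, 35_26 or 6_2 (adjusted p = 0.057 to 0.080), and with the label numbers in runs of 4 as a replicate block (adjusted p = 0.051) or the fit of these groups alone (adjusted p = 0.059). Among the mice numbered 1 to 12 the differences were 0.51 with H2S and 0.48 with air, the one with air no longer past the threshold (adjusted p = 0.069), and among those numbered 20 to 28 they were 0.29 and 0.21.

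Plin2 encodes perilipin 2, which coats lipid droplets (chromosome 4, 86626910 to 86670217). It had an intensity of 3071, 3329, 2840, 2408 and 2863 in H2S ventilated mice, 2287, 2627, 2294, 2203 and 2608 in air ventilated mice and 2310, 2092, 1852, 2119 and 2226 in control mice. All H2S ventilated mice were above all controls, while the air ventilated mice overlapped with both other groups. The difference from control was 0.45 ± 0.09 with H2S, or 1.37-fold with an interval of 1.19 to 1.56 (adjusted p = 0.0063), and 0.18 ± 0.09 with air (adjusted p = 0.41). H2S minus air was 0.27 ± 0.09 with an interval of 0.07 to 0.46. This direct difference had an unadjusted p of 0.0103 and an adjusted p of 0.586 over all probes, so that a larger change with H2S than with air was not shown for Plin2. Among the mice numbered 1 to 12 the differences from control were 0.57 with H2S and 0.21 with air, and among those numbered 20 to 28 they were 0.27 and 0.14.

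**Figure D1:**
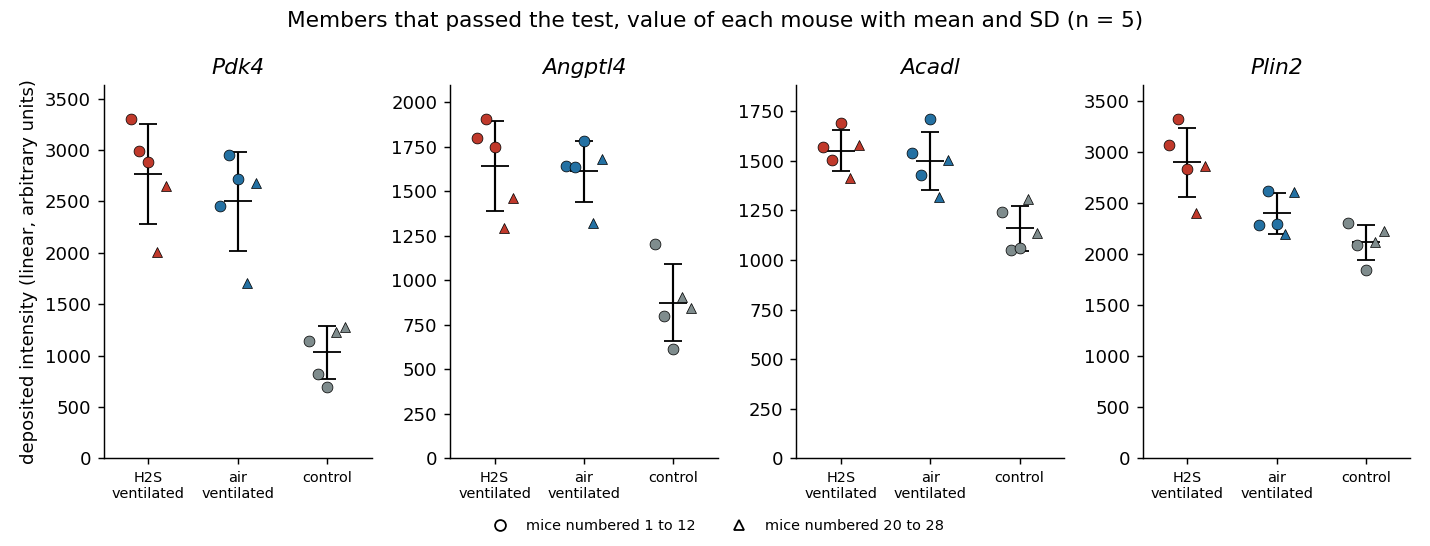
Deposited intensity (linear, arbitrary units) of Pdk4, Angptl4, Acadl and Plin2 in each of 5 mice per group, with the group mean and SD, and circles and triangles for the 2 sets of label numbers. Every ventilated mouse lies above every control mouse for Pdk4, Angptl4 and Acadl, and for Plin2 only the H2S ventilated mice do.

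The other 4 measured members did not pass in any comparison. Cpt1a, the carnitine palmitoyltransferase of the outer mitochondrial membrane that controls the entry of long-chain fatty acids, ranged between 2171 and 2396 in H2S ventilated mice, 2059 and 2542 in air ventilated mice and 1872 and 2469 in control mice. Its differences from control were 0.08 ± 0.09 with H2S and 0.11 ± 0.09 with air, with 95% intervals of -0.11 to 0.27 and -0.08 to 0.30. Thus a rise of Cpt1a of the size seen for Pdk4 lies outside both intervals, whose upper ends correspond to 1.21-fold and 1.23-fold. Hadha, the alpha subunit of the mitochondrial trifunctional protein of long-chain beta-oxidation, ranged between 1704 and 2006 with H2S, 1711 and 1820 with air and 1614 and 2044 in controls. Its differences of 0.03 ± 0.07 with H2S and -0.01 ± 0.07 with air had intervals within -0.17 and 0.19.

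Acadm, the medium-chain counterpart of Acadl, was the one member whose estimates lay below control in both comparisons. Its intensity was 1198, 1144, 1085, 1287 and 1272 in H2S ventilated mice, 1293, 1111, 1463, 1421 and 1252 in air ventilated mice and 1294, 1308, 1458, 1383 and 1408 in control mice. All 5 H2S ventilated mice were below all controls, by a narrow gap between 1287 and 1294. The difference was -0.20 ± 0.08 with H2S (adjusted p = 0.18) and -0.07 ± 0.08 with air (adjusted p = 0.83). Ucp3, a carrier of the mitochondrial inner membrane known mainly from muscle, was dim in all groups, between 124.4 and 191.6 in H2S ventilated mice, 139.4 and 157.1 in air ventilated mice and 128.8 and 143.2 in control mice, below or close to the array medians. Its difference from control was 0.22 ± 0.09 with H2S (adjusted p = 0.20) and 0.13 ± 0.09 with air (adjusted p = 0.63). The H2S ventilated mice spread most, as they held both the lowest and the highest Ucp3 value of the 15 mice. Without H2S ventilated mouse 1_4, the lowest, its difference with H2S passed at 0.30 (adjusted p = 0.045).

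**Figure D2:**
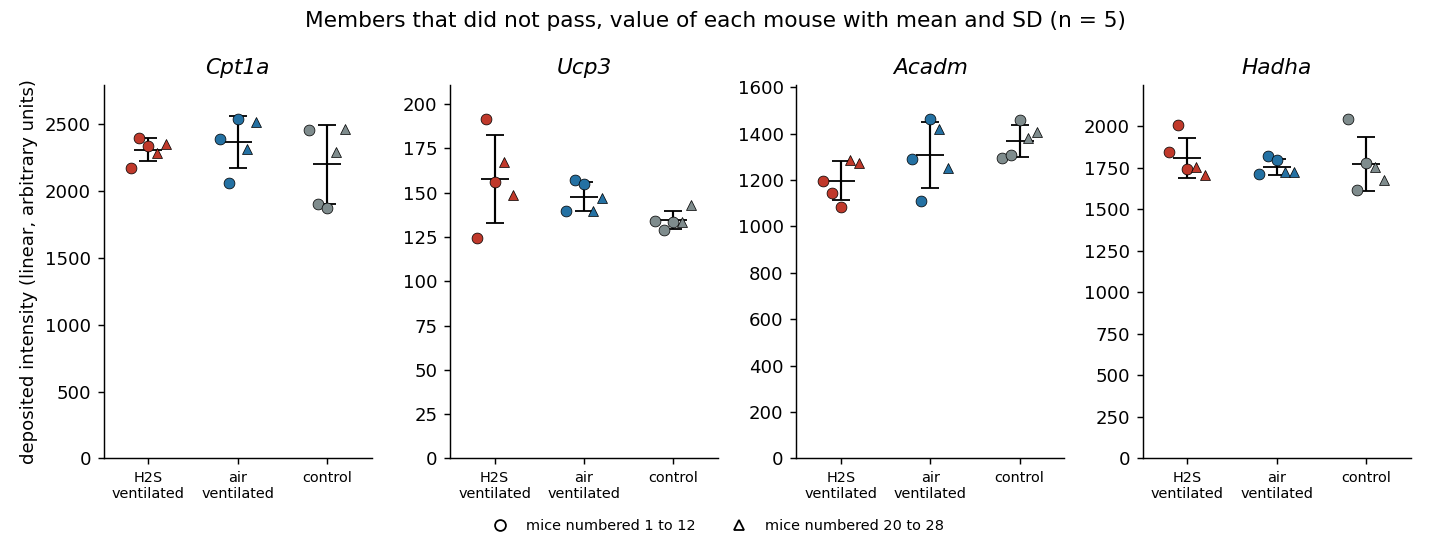
Deposited intensity (linear, arbitrary units) of Cpt1a, Ucp3, Acadm and Hadha in each of 5 mice per group, with the group mean and SD. The 3 groups overlap for Cpt1a, Ucp3 and Hadha, and for Acadm the H2S ventilated mice end at 1287, just under the lowest control mouse at 1294.

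Counting groups without overlap, 5 of 8 members separated every H2S ventilated mouse from every control mouse (4 higher and Acadm lower), against 8.2% of all probes. With air, 3 of 8 members did so, against 5.55% of all probes, and between the ventilated groups 0 of 8 did, against 1.2%. The members also varied within groups. H2S ventilated mouse 15_20 and air ventilated mouse 34_22 had the lowest value of their group for Pdk4, Angptl4, Acadl and Plin2 alike, and control mouse 7_9 had the lowest for Pdk4, Angptl4 and Plin2. Without mouse 15_20 the Pdk4 difference with H2S was 1.55, and without mouse 34_22 that with air was 1.42. Over the 15 deviations from the group means, the correlation of Pdk4 with Angptl4 was 0.79, with Plin2 0.78, with Acadl 0.69 and with Acadm -0.45. These correlations describe arrays that were normalized together.

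**Figure D3:**
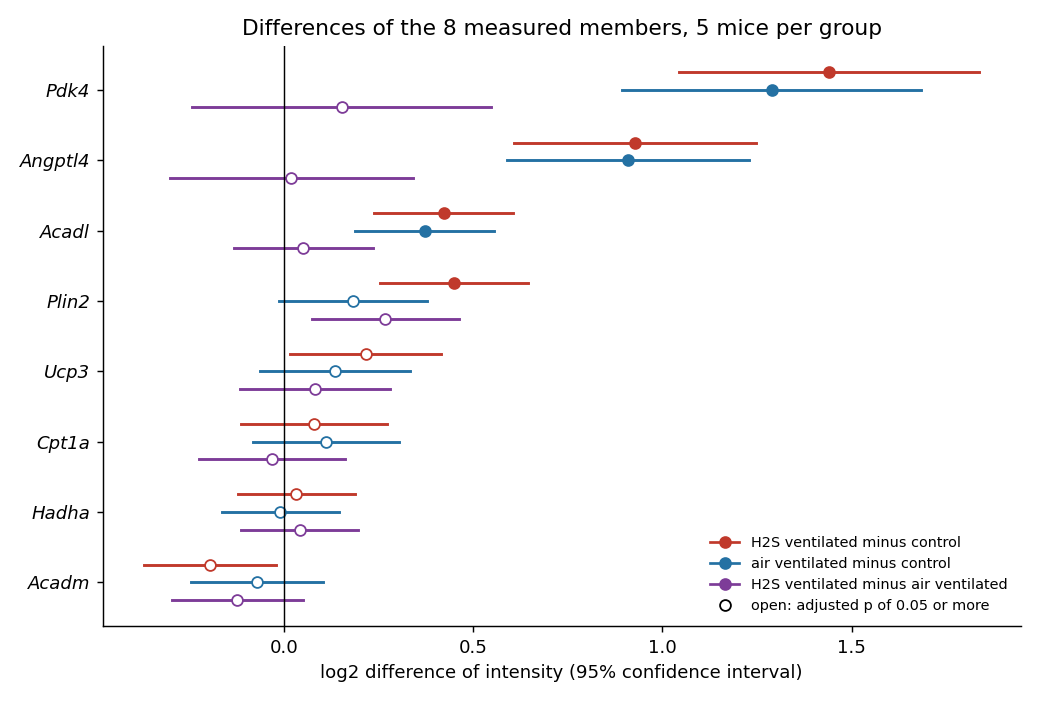
Differences of log2 intensity for the 8 measured members in 3 comparisons, each point with its 95% confidence interval from limma (5 mice per group), filled where the adjusted p over all probes was under 0.05. Pdk4 and Angptl4 stand between 0.91 and 1.44 in both comparisons with control, and all 8 open points of H2S ventilated minus air ventilated lie between -0.12 and 0.27.

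Promoter sequences are shown for the 3 members with a promoter entry that passed, Pdk4, Acadl and Plin2, beside Ucp3, which held the most half-sites but did not pass. They are from RefSeq (GRCm38.p6), run 5′ to 3′ on the strand of the gene from 250 bases before to 50 after the start site, and were matched by symbol for 8 of the 9 named genes, Ucp2 included and Angptl4 not. PPAR with its partner binds a direct repeat of the half-site AGGTCA with a single spacer base. Capitals mark AGGTCA on either strand, which reads TGACCT where it lies on the opposite strand. The promoters of Pdk4 (chr6:5496229-5496528, minus strand), Acadl (chr1:66863260-66863559, minus strand), Plin2 (chr4:86670010-86670309, minus strand) and Ucp3 (chr7:100472741-100473040, plus strand) were as follows.
Pdk4: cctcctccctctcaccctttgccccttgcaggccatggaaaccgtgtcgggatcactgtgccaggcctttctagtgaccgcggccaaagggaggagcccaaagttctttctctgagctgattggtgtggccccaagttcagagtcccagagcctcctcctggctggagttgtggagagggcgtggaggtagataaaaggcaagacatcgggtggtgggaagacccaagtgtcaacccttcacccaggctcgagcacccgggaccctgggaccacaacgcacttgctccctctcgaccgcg
Acadl: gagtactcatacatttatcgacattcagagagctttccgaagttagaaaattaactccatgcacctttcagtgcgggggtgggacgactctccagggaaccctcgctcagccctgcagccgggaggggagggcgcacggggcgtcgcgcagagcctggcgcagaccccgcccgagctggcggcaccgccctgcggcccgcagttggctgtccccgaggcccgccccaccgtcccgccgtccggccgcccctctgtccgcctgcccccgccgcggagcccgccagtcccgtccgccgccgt
Plin2: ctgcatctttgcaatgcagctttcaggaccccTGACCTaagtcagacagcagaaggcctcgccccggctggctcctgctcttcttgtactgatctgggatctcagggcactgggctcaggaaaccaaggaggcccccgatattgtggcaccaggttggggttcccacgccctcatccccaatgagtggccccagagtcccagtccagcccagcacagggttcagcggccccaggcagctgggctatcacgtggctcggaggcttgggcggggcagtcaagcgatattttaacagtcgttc
Ucp3: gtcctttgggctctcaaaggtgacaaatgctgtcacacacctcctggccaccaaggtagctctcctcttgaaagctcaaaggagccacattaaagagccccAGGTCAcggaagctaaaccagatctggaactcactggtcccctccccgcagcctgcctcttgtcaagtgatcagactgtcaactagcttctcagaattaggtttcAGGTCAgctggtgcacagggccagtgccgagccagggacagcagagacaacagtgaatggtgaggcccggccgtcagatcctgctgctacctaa

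The half-site AGGTCA was present on either strand in 16.3% of 32851 promoters and in 4 of the 8 matched promoters (Acadm, Plin2, Ucp3 and Cpt1a). Counted from the start site, Plin2 held 1 that began at -218, and Ucp3 held 2, at -149 and -44. The windows of Pdk4, Acadl, Hadha and Ucp2 held none, and of the 4 genes with a half-site only Plin2 passed in a comparison. The full repeat AGGTCANAGGTCA, whose letters contain the half-site at both ends, was present in 0.0396% of all promoters and in none of the 8. A match in so short a window is a description of letters and not of binding.

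The receptors that act on these genes were read from a list of 13 measured receptors and coregulators. Pparg, which encodes PPAR gamma, had an intensity of 927.2, 939.5, 847.0, 932.2 and 956.4 in H2S ventilated mice, 693.0, 734.3, 675.2, 674.6 and 731.4 in air ventilated mice and 714.2, 680.2, 601.6, 693.2 and 691.3 in control mice. All H2S ventilated mice were above all others. The difference was 0.45 ± 0.07 for H2S minus control (adjusted p = 0.00089), 0.06 ± 0.07 for air minus control (adjusted p = 0.85) and 0.39 ± 0.07 for H2S minus air (adjusted p = 0.032). The call between H2S and air rested on a narrow margin, as leaving out any one mouse other than control 5_1, control 7_9, air ventilated 11_6 or H2S ventilated 9_12 took it past the threshold (adjusted p = 0.051 to 0.126), as did the fit of these groups alone (adjusted p = 0.104) and the replicate block (adjusted p = 0.083).

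Ppargc1a encodes PGC-1 alpha, a coactivator of PPARs and of mitochondrial genes, and had the largest difference of the 13. It had an intensity of 1199, 1731, 1390, 708.0 and 934.3 in H2S ventilated mice, 224.6, 265.9, 244.9, 251.7 and 234.7 in air ventilated mice and 228.7, 194.5, 252.2, 231.3 and 229.2 in control mice. H2S minus control was 2.33 ± 0.17, or 5.03-fold (adjusted p = 4.7e-06), H2S minus air was 2.22 ± 0.17, or 4.66-fold (adjusted p = 2.8e-05), and air minus control was 0.11 ± 0.17 (adjusted p = 0.91). The Ppargc1a pattern therefore set the H2S ventilated group apart from the air ventilated group, and no member did. Ppara and Ppard, which encode PPAR alpha and PPAR delta, did not pass in any comparison, with differences from control of 0.21 ± 0.10 and 0.17 ± 0.09 with H2S and 0.07 ± 0.10 and 0.11 ± 0.09 with air. Lpin1, whose product lipin 1 makes diacylglycerol and also coactivates PPAR alpha with PGC-1 alpha, was higher by 0.80 ± 0.12 with H2S (adjusted p = 0.00092) and by 0.91 ± 0.12 with air (adjusted p = 0.0012).

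**Figure D4:**
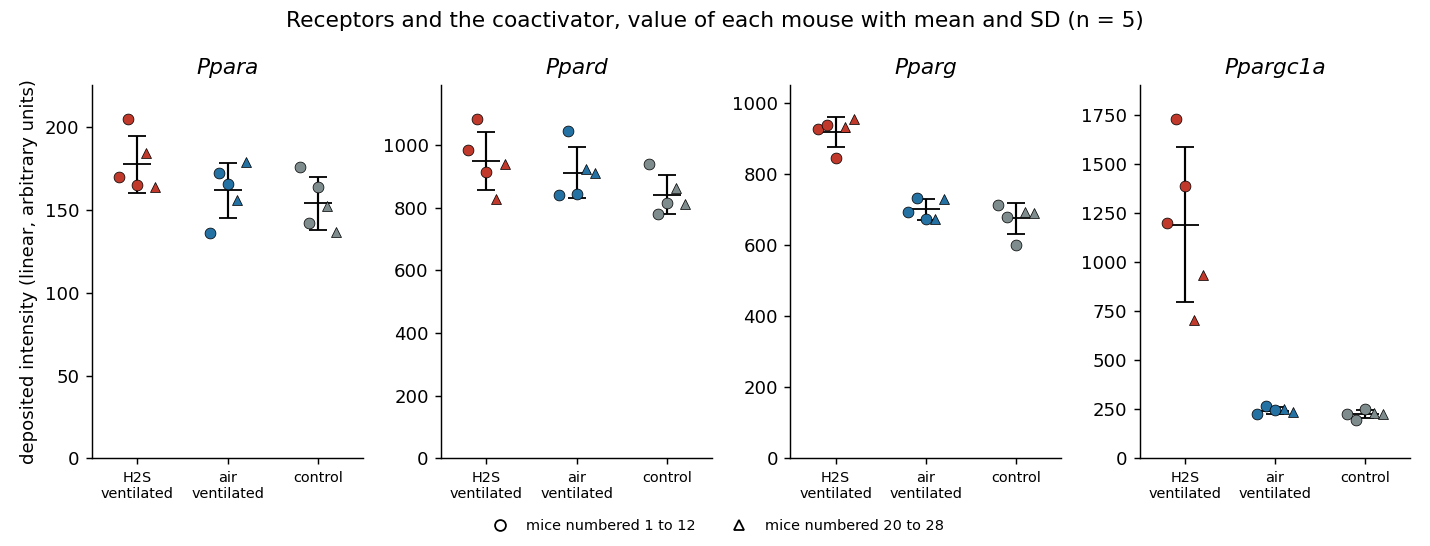
Deposited intensity (linear, arbitrary units) of Ppara, Ppard, Pparg and Ppargc1a in each of 5 mice per group, with the group mean and SD. For Pparg and Ppargc1a the 5 H2S ventilated mice lie above all air ventilated and control mice, and for Ppara and Ppard the 3 groups overlap.

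The wider pathway was described by 9 lists with 114 measured genes of 126. Most enzymes of beta-oxidation stayed with Cpt1a and Hadha. Of 18 other mitochondrial beta-oxidation genes, 2 were higher and 1 lower with H2S, and 1 was higher with air, with list medians of -0.02 and 0.02. CyberT passed 1 with H2S and 1 with air. Eci2, an isomerase for unsaturated fatty acids, was higher by 0.60 ± 0.10 with H2S and 0.55 ± 0.10 with air (adjusted p = 0.0024 and 0.0078). Slc25a20, the carnitine carrier of the inner membrane, was higher by 0.28 ± 0.08 with H2S (adjusted p = 0.035), and Acad9, an acyl-CoA dehydrogenase that also helps to build respiratory complex I, was lower with H2S, at -0.30 ± 0.08 (adjusted p = 0.024). With air Slc25a20 and Acad9 went the same way without passing, at 0.25 ± 0.08 and -0.18 ± 0.08 (adjusted p = 0.11 and 0.27). Their H2S minus air was 0.03 ± 0.08 and -0.12 ± 0.08 (adjusted p = 0.997 for each). Of 15 peroxisomal and omega oxidation genes, only Pex11a, which acts in peroxisome division, passed, by 0.50 ± 0.09 with H2S and 0.36 ± 0.09 with air (adjusted p = 0.0021 and 0.027). Crot and Abcd2, an acyltransferase and a transporter of the peroxisome, stood at -0.27 ± 0.09 and -0.30 ± 0.15 with H2S and at 0.01 ± 0.09 and -0.15 ± 0.15 with air.

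In fatty acid uptake, binding and activation, CyberT passed 4 of 18 genes with H2S and 6 with air, and 9 and 8 had an unadjusted p under 0.05. Of all 28361 probes, 5869 had such a p with H2S and 3966 with air. Lpl, which encodes the lipase that Angptl4 inhibits, had a median intensity of 2208 (range 1613 to 2393) in H2S ventilated mice, 1938 (1609 to 2941) in air ventilated mice and 1203 (1049 to 1299) in control mice. It was higher by 0.84 ± 0.14 with H2S and by 0.79 ± 0.14 with air (adjusted p = 0.0019 and 0.0059), so that the lipase and its inhibitor were both above control in every ventilated mouse. Of the 18 uptake, binding and activation genes, 3 were higher (Lpl, Fabp4 and Acot1) and 1 lower (Slc27a3) with H2S, and 1 was higher (Lpl) and 1 lower (Fabp1) with air, with list medians of -0.02 and 0.03. Acot1, a cytosolic acyl-CoA thioesterase, was higher by 0.73 ± 0.15 with H2S (adjusted p = 0.0065) and differed by 0.44 ± 0.15 with air (adjusted p = 0.14). It was dim in control mice, between 115.5 and 212.8, around the array medians. Fabp1, a fatty acid binding protein best known from liver, fell by 0.47 on the log2 scale with air (SE 0.11, adjusted p = 0.029). With H2S it stood at -0.11 ± 0.11 (adjusted p = 0.67). Fabp1 was dim, between 119.6 and 168.5 in air ventilated mice and 161.1 and 228.0 in control mice. These values overlapped and lay around or below the array medians.

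Of 18 genes of lipid droplet storage and lipolysis, 4 were higher with H2S (Cidea, Pnpla2, Hilpda and Fitm2) and 2 with air (Plin4 and Pnpla2), none was lower, and the list medians were 0.23 and 0.16. CyberT passed 6 with H2S and 3 with air. Pnpla2, which encodes adipose triglyceride lipase, had a median intensity of 2388 (2352 to 2687) in H2S ventilated mice, 2554 (2297 to 2864) in air ventilated mice and 1737 (1294 to 2013) in control mice. Hilpda, a lipid droplet protein that inhibits that lipase, had a median of 1437 (1133 to 1901) with H2S, 964.5 (787.2 to 1533) with air and 811.7 (665.2 to 948.0) in controls. The Hilpda difference from control was 0.94 ± 0.17 with H2S (adjusted p = 0.0028) and 0.42 ± 0.17 with air (adjusted p = 0.24), and that between H2S and air was 0.52 ± 0.17 (adjusted p = 0.50). Fitm2, which promotes droplet formation, was higher by 0.37 ± 0.08 with H2S (adjusted p = 0.0089) and differed by 0.26 ± 0.08 with air (adjusted p = 0.105). Its H2S minus air was 0.11 ± 0.08 (adjusted p = 0.997).

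Pdk4 stood alone in its own complex. None of the 11 other measured genes of pyruvate dehydrogenase and its regulators passed by limma or CyberT in either comparison with control, and 1 had an unadjusted p under 0.05 in each. Pdk1, another kinase of the family, differed by 0.19 ± 0.08 with H2S and 0.21 ± 0.08 with air (adjusted p = 0.20 and 0.22). The complex subunits Dld and Dlat differed by 0.21 ± 0.10 and 0.13 ± 0.07 with H2S and by 0.12 ± 0.10 and 0.13 ± 0.07 with air. None of the 3 measured ketone body enzymes (Acat1, Bdh1 and Oxct1) passed by either tool in any comparison, none had an unadjusted p under 0.05, and their differences lay between -0.15 and 0.14.

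Among 7 other uncoupling and angiopoietin-like genes, only the mitochondrial carrier Slc25a30 passed, by 0.51 ± 0.07 with H2S and 0.36 ± 0.07 with air (adjusted p = 0.00071 and 0.011). Angptl7 and the carrier Slc25a14 differed by 0.19 ± 0.13 and 0.10 ± 0.09 with H2S and by 0.31 ± 0.13 and 0.19 ± 0.09 with air. Fatty acid synthesis ran the other way in its median, at -0.12 in both ventilated groups. Acaca, the acetyl-CoA carboxylase that makes malonyl-CoA, was lower in both groups, at -0.37 ± 0.09 with H2S and -0.34 ± 0.09 with air (adjusted p = 0.012 and 0.037). Scd1, a fatty acid desaturase, stood at -0.12 ± 0.06 with H2S and -0.25 ± 0.06 with air (adjusted p = 0.31 and 0.044), and Me1, which supplies NADPH, was higher by 0.30 ± 0.08 with H2S (adjusted p = 0.036). With air Me1 differed by 0.09 ± 0.08 (adjusted p = 0.743), and its H2S minus air was 0.20 ± 0.08 (adjusted p = 0.736). The calls of Acad9, Slc25a20 and Me1 with H2S and of Pex11a, Fabp1, Acaca and Scd1 with air were each lost on leaving out some single mice, between 4 of 15 for Acad9 and 11 of 15 for Scd1. In no list other than receptors and coregulators did a gene pass between H2S and air by limma or by CyberT, where between 0 and 2 genes of each list had an unadjusted p under 0.05.

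**Figure D5:**
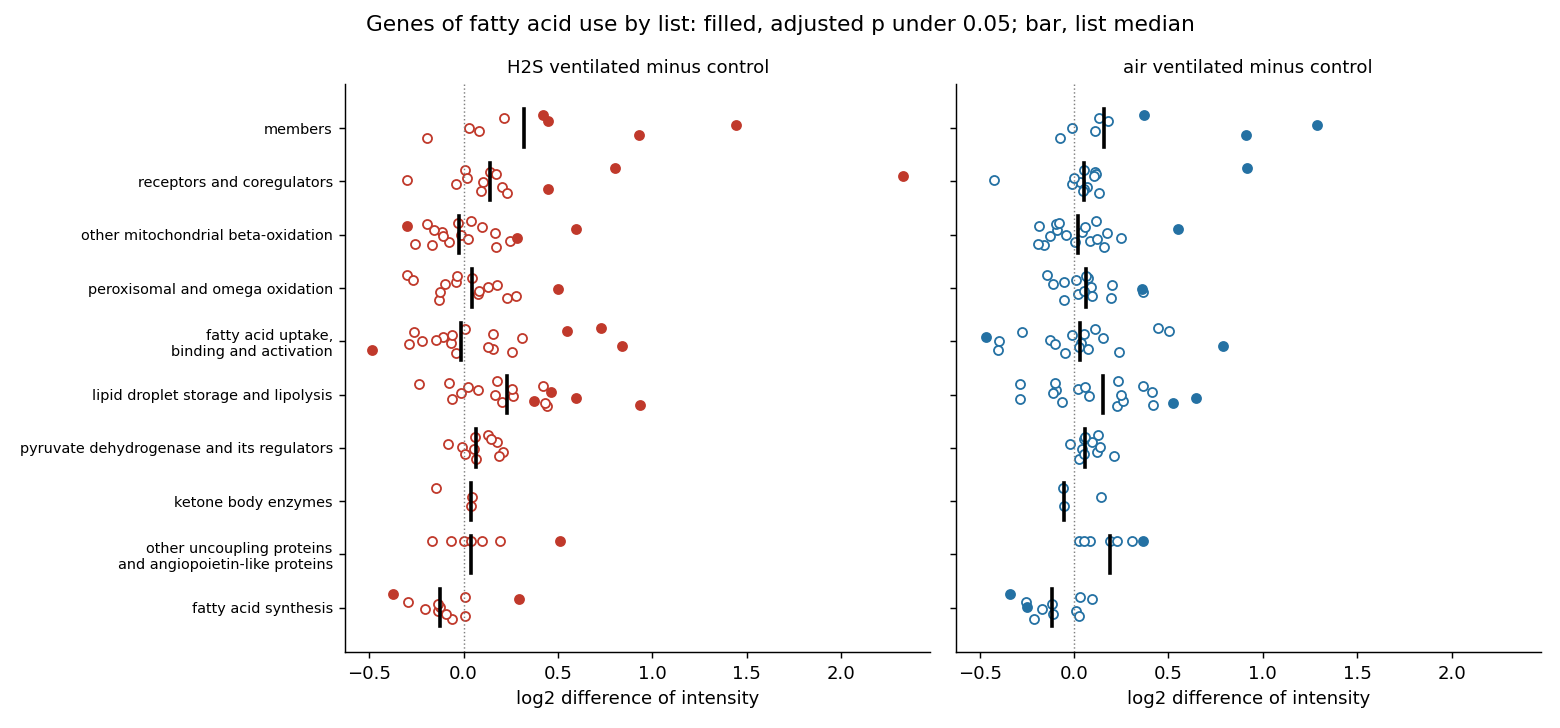
Difference from control of log2 intensity for each measured gene of the members and of 9 lists of fatty acid genes, with H2S ventilated minus control on the left and air ventilated minus control on the right, filled where the adjusted p was under 0.05, and a bar at the list median. With H2S, 4 of the 8 members, 4 of 18 lipid droplet genes, 3 of 13 receptors and coregulators and 0 of 11 pyruvate dehydrogenase genes are filled. With air, 3 of the 8 members, 2 of 18, 1 of 13 and 0 of 11 are. Of all probes, 3.92% were higher and 3.93% lower with H2S, and 1.56% and 1.89% with air. Ppargc1a, at 2.33 with H2S and open at 0.11 with air, lies farthest out.

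Cell type markers are given beside these genes, and their directions differed between cell types. Of 6 measured alveolar macrophage markers, 3 were higher with H2S (Marco, Mrc1 and Krt79) and 1 with air (Mrc1), and their summed intensity ranged between 8965 and 10082 in H2S ventilated mice, 8353 and 9345 in air ventilated mice and 7998 and 9522 in control mice. Their median difference was 0.38 with H2S and 0.24 with air. Chil3, Itgax and Car4 did not pass, at 0.24, -0.01 and 0.03 with H2S and 0.26, -0.19 and -0.04 with air. Of 8 neutrophil markers, 4 were higher with H2S and 3 with air, with sums of 10408 to 19434 and 10733 to 16532 against 5409 to 11204 in controls. CyberT passed 7 neutrophil markers with H2S and 5 with air. All 7 measured B cell markers were lower in both ventilated groups, with sums of 1083 to 2199 with H2S and 1180 to 2855 with air, against 3080 to 5277 in controls. Of 8 endothelial markers, 3 were lower with H2S (Kdr, Tek and Tie1) and 2 with air (Kdr and Tek), with sums of 26109 to 28278 and 25167 to 28538, against 29589 to 33644 in controls. Pecam1, Cdh5, Emcn, Cldn5 and Ramp2 did not pass by limma, at -0.12, -0.01, -0.13, -0.09 and -0.11 with H2S. With air they stood at -0.10, -0.05, -0.39, -0.23 and 0.17. CyberT passed 3 endothelial markers with H2S and 5 with air. Of 8 alveolar type II markers, Sftpd was higher and Abca3 lower with H2S, none passed with air by either tool (2 at an unadjusted p under 0.05), and the sums overlapped (61481 to 64510, 61325 to 64380 and 59940 to 63233 in control mice). None of these markers was listed at 0, and the part of these cells in the results was not tested.

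None of the 6 adipocyte markers passed by limma in either comparison with control (CyberT passed 1 with H2S and 0 with air, and 2 and 0 had an unadjusted p under 0.05, as did 5869 and 3966 of all 28361 probes). Their sums ranged between 1044 and 2018 in H2S ventilated mice, 946.4 and 1558 in air ventilated mice and 910.4 and 1505 in control mice. None of the 9 cardiac and skeletal muscle markers passed by either tool (1 with H2S and 0 with air at an unadjusted p under 0.05), with sums of 4794 to 10353 with H2S, 5191 to 8028 with air and 5516 to 7672 in controls. Fat and muscle are tissues in which Pdk4, Angptl4 and Ucp3 are well known. The marker sums of both spread widely and overlapped between all 3 groups, and a part of these tissues in the results was not tested.

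The genes most like Pdk4 over the 15 arrays among 19933 others, by Pearson correlation of log2 intensity, were Fmnl2 (0.973), Tmod1 (0.971) and Rgcc (0.970), and Angptl4 came 16th at 0.954. Fmnl2 was higher by 0.89 ± 0.12 with H2S and 0.78 ± 0.12 with air. The genes most like Angptl4 were Gdpd1 (0.968), Tcn2 (0.958) and Slc6a2 (0.958), with Pdk4 6th. Acadl came 70th for Pdk4 (0.928) and 64th for Angptl4 (0.915), whereas Cpt1a stood at 0.49 and 0.55 and Acadm at -0.61 with both. These values hold the group differences themselves. On deviations from the group means, the closest to Pdk4 were Slf2 (0.882), Pfkfb3 (0.850) and Fmnl2 (0.840), and the closest to Angptl4 were Gdpd1 (0.895), Dnajb3 (0.887) and Rpl34 (0.887). Dnajb3 was dim, between 29.03 and 55.39 and far below the array medians, and neither Dnajb3 nor Rpl34 passed in any comparison. All these are the highest of 19933 values over 15 arrays, and no p was computed for them.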

How the data were processed

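The authors processed the scanned arrays in Genedata Expressionist Refiner, with a GC-dependent background from anti-genomic probes, quantile normalization and RMA, a step that the submitters' notes also list. Deposited were linear intensities, where log2 values had been planned for, and log2 was taken here. All 28361 probes of 15 arrays entered one limma 3.58.1 fit (R 4.3.3, Python 3.11.15, matplotlib 3.10.9) with no covariate. Alternatives were CyberT, the study's test (confidence 15, window 101), the fit of 2 groups alone, a variance trend, array weights, group medians, renormalization, median centring, probes above the median level, log2 of intensity plus 16, the mean of a gene's probes, blocks for label numbers, each number set alone and leaving out each mouse. On simulated data for H2S minus control, 92% of 200 probes changed by a fold of 2 were recovered among 28361.

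A platform table gave the symbols (21780 probes with 1, 1617 with several, 4964 with none), and the probe of the highest mean stood for a gene. The text names all members, the PPARs and Ppargc1a, up to 3 genes per list with the smallest adjusted p, and the 3 genes most like Pdk4 and Angptl4. Fabp4, Slc27a3, Plin4, Cidea and the markers fall outside this rule and complete counts. Members and lists were chosen with earlier results of these data known, and Pdk4, Angptl4 and Ppargc1a are in the study's own gene lists, so their directions are not independent evidence. Positions are from RefSeq, as the values carry no build. Of the sample columns 0 were left unused. Each array is a separate mouse, and the number of arrays limits the precision.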

Additional observations from a re-analysis of the deposited data

Results flagged for a closer look

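Pparg in the H2S ventilated group had 1 mouse apart from the others, 9_12 with an intensity of 846.98 where the other 4 lay between 927.2 and 956.4. It was the only one of 36 groups of 5 mice looked at (8 members and 4 receptor genes in 3 groups) whose gap passed Dixon's limit, and chance marks about 1 group in 20. Without this mouse the Pparg difference of H2S minus air is 0.42, against 0.39 with it. Between the H2S ventilated and the air ventilated mice, 2 of the genes named here differed by the direct test, Pparg with 0.39 and Ppargc1a with 2.22 on the log2 scale. Over all 28361 probes, 20 were higher and 2 lower in that comparison. The Pparg call was lost in 11 of 15 fits with 1 mouse left out (adjusted p = 0.051 to 0.126 by limma). None of the 8 members passed that test by limma or CyberT, and 1 had an unadjusted p under 0.05.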

How the results depend on the processing

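For the 8 members, 315 of 333 values under other processing and 346 of 360 with 1 mouse left out counted as kept. Where a p was computed, kept meant the same direction and the same side of the threshold. Group medians have no p and counted as kept where they moved by less than the largest group SD of the gene. For them a changed sign was also allowed where the main difference had not passed. Of the values that changed sign, none had passed the test. The limits are few mice, whole lung tissue, and label numbers whose meaning is not given. Among the mice numbered 20 to 28 alone (2 per group), 0 members passed as higher with H2S and 0 with air, where 2 and 0 of all 28361 probes did. In the fit of 2 groups alone and among the mice numbered 1 to 12 alone, 2 members were higher with air, Acadl being lost (adjusted p = 0.059 and 0.069). With 1 mouse left out, between 4 and 5 members were higher with H2S and between 2 and 3 with air. In the fit with the label number runs of 4 as a replicate block, Pdk4 stood at 1.52 with H2S and 1.29 with air and Angptl4 at 0.99 and 0.91, and the calls of Acadl and of Pparg given above were lost, as were those of Slc25a20 with H2S and of Pex11a, Fabp1, Acaca and Scd1 with air. H2S ventilated mouse 15_20 is alone in its run and adds nothing to that fit. Each run held at most 1 mouse of a group. Mice of 1 run deviated from their group means with a mean correlation of 0.179 (13 pairs, -0.179 to 0.358). Between runs it was -0.037 (62 pairs, -0.499 to 0.490). Mice of 1 run were thus more alike on average, with wide overlap. As the labels do not say what a run is, the main fit did not use runs, and calls lost with the block are less certain.

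Angptl4 between H2S and air changed sign with array weights (-0.025), renormalization (-0.016), the mice numbered 20 to 28 (-0.12) and 1 mouse left out (-0.050 to 0.10). Cpt1a with H2S stood at -0.036 in the mice numbered 20 to 28. Hadha with air stood at 0.0133 with array weights, 0.0116 with median centring, 0.0081 in the mice numbered 20 to 28 and -0.043 to 0.042 with 1 mouse left out, and Hadha with H2S at -0.0046 after renormalization and -0.0067 to 0.084 with 1 mouse left out. In the mice numbered 20 to 28, Ppard between H2S and air was -0.057, Crot with air -0.0099, Oxct1 with air 0.10 and Angptl7 with H2S -0.026. In the mice numbered 1 to 12, Ppara with air was -0.024 and Oxct1 with H2S -0.10, and Oxct1 with H2S was -0.00081 with the replicate block. With 1 mouse left out, Crot with air lay between -0.040 and 0.063, Bdh1 with H2S between -0.041 and 0.092 and Oxct1 with H2S between -0.0090 and 0.084. Array weights passed 1644 probes as higher and 1362 as lower with H2S and 837 and 876 with air, and CyberT passed 109 and 34 between H2S and air, against 20 and 2 by limma. Median centring passed 1407 as higher and 934 as lower with H2S. The cause of these changes was not tested.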
